A study of Mus musculus with 8 samples.

Results

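The Ly49 receptors of the mouse are encoded by the Klra genes, which lie side by side in the natural killer gene complex. The 8 members described here were the expression rows with the symbols Klra1, Klra3, Klra4, Klra5, Klra6, Klra7, Klra8 and Klra9, out of 32285 rows in the tables of 4 single-cell libraries. All 8 were found. The libraries came from bone marrow T cells of C57BL/6 mice that had been enriched by negative selection and sorted as CD3+ cells without the DNA dye DAPI and without mCherry, the reporter that marks cells carrying the active fusion gene. The Runx1::Runx1t1 group was Runx1Runx1t1/+; Mx1-Cre, a conditional knock-in of the leukemia fusion gene on 1 allele whose recombination is switched on in cells that respond to interferon. The Control group was littermates matched for sex, which carried the Runx1Runx1t1/+ allele without Mx1-Cre by the study's methods and are called wild type in the labels. Both groups received Poly(I:C), an inducer of interferon, at 5 mg/kg every other day for 4 injections, and marrow was taken 4 weeks after induction. The ages at the start are not given in the sources used here. Mice were pooled by 2, with 2 such pools in a group. From every pool came an expression library of the 5′ ends of transcripts and a T cell receptor library, so there were 8 libraries. The pool was the replicate throughout. The level in a single mouse was not measured, and a difference between the groups cannot be told apart from a difference between the Cre carriers and the mice without Cre.

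Ly49 receptors are lectin-like proteins of the cell surface that bind MHC class I molecules and are best known from natural killer cells. Most are inhibitory and recruit phosphatases such as the product of Ptpn6 through a tyrosine motif in their cytoplasmic tail. Others lack that motif and signal through the adaptor protein encoded by Tyrobp. A natural killer cell turns on its own combination of these genes and passes it to its progeny, so that the receptors are spread over the cells like a mosaic. Among T cells they are known from memory-like and regulatory CD8 T cells, from natural killer T cells and from other T cells that carry natural killer receptors. Klra1, Klra3, Klra5, Klra6, Klra7 and Klra9 encode the inhibitory receptors Ly49A, Ly49C, Ly49E, Ly49F, Ly49G and Ly49I. Klra4 and Klra8 encode the activating receptors Ly49D and Ly49H, the second of which binds a protein of mouse cytomegalovirus.

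All 8 members lay on the minus strand of chromosome 6 (GRCm38) within 487.879 kb. From the low to the high end of the cluster they were Klra5 (chr6:129898996-129917650), Klra6 (chr6:130013033-130026954), Klra4 (chr6:130043731-130067271), Klra8 (chr6:130115226-130129898), Klra9 (chr6:130178675-130193112), Klra7 (chr6:130218605-130233322), Klra3 (chr6:130323289-130337574) and Klra1 (chr6:130363917-130386874), all annotated as protein-coding genes. Because the genes are near copies, each stretch of 90 bases in the first 500 bases of their GENCODE transcripts was looked up in all other transcripts. For 7 members 100% of these stretches were found nowhere else. For Klra8 this held for 61.6%, and the rest also occurred in the pseudogene Klra14-ps, which had no row in the tables, so Klra8 counts are uncertain in that respect.

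The 250 bases before the start sites are shown for 5 members, namely both pairs whose levels ran most closely together over classes and pools (Klra6 with Klra7 and Klra3 with Klra9) and Klra8, the member that was higher in the Runx1::Runx1t1 pools. The windows were read 5′ to 3′ on the gene's strand from RefSeq promoters on GRCm38.p6, in which all 8 members had an entry. Capitals mark AAGCAATTTCCTC, which at 13 bases was the longest run of letters that 6 of the 8 windows had in common.
Klra6, chr6:130026955-130027204, minus strand: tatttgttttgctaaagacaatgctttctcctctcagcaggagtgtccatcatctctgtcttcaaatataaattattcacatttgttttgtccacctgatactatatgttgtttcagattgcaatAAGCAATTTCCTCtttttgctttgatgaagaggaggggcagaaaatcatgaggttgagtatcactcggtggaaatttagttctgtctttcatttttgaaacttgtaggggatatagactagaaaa
Klra7, chr6:130233323-130233572, minus strand: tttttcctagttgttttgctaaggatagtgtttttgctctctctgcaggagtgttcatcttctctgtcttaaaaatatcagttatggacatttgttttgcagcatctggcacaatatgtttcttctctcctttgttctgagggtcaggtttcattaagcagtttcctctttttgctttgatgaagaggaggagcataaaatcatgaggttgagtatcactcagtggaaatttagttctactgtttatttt
Klra3, chr6:130337627-130337876, minus strand: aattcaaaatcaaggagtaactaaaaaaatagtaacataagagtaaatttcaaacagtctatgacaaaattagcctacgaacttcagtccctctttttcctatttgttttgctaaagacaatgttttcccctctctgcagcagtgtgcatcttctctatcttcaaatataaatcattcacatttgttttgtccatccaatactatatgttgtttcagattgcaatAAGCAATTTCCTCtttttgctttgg
Klra9, chr6:130193113-130193362, minus strand: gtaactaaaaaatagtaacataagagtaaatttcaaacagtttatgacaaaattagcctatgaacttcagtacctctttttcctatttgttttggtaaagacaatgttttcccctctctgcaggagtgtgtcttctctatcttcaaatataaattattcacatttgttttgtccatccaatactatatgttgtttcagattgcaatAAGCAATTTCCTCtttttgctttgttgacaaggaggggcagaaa
Klra8, chr6:130129899-130130148, minus strand: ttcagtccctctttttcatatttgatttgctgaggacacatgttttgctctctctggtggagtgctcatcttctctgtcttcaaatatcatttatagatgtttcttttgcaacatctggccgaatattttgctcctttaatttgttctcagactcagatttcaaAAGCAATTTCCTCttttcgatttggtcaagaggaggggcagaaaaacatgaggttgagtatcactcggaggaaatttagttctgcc
Searched on both strands, the run was present in 10 of all 32851 promoter windows of that length (0.0304%). Of these 6 were the members' own, and the others belonged to a further start site of Klra8, to Klra17, to Gm52487, whose window overlaps that of Klra9 on the other strand, and to Kcnf1 on another chromosome. It began 125 bases before the start site of Klra6, 96 before Klra5, 86 before Klra8, 85 before Klra4, 44 before Klra9 and 25 before Klra3, and these letters were not in the windows of Klra7 and Klra1. These RefSeq start sites lie 4426 bases from the GENCODE gene start given above for Klra5 and 52 bases from it for Klra3, and coincide with it for the others. In global alignments the windows of Klra3 and Klra9 were identical at 83.3% of positions and those of Klra6 and Klra7 at 66.8%. The pair most alike, at 84.5%, was Klra4 and Klra8, the genes of both activating receptors.

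T cells were sorted into classes from their T cell receptor contigs and co-receptor counts, without clustering and without any member. TRAV11-TRAJ18 T cells were those with the alpha chain rearrangement of invariant natural killer T cells (1749 cells). Of the other cells with an alpha and a beta chain, Cd8 T cells held a UMI (a count of 1 captured molecule) of Cd8a or Cd8b1 and none of Cd4 (21181 cells), Cd4 T cells the reverse (5449 cells), and co-receptor-negative T cells no UMI of any of the 3 genes (6421 cells). In total 53033 of 56649 barcodes were kept, and 1627 barcodes occurred in more than 1 library, none of them with the same clonotype. Median UMIs per cell in the order Control pool 1, Control pool 2, Runx1::Runx1t1 pool 1 and Runx1::Runx1t1 pool 2, which is used for all lists of 4 values here, were 6940, 7028, 7779 and 7039 in Cd8 T cells, 6377, 6341, 4879 and 5129 in co-receptor-negative T cells, and 5474, 5278, 6572.5 and 6477 in TRAV11-TRAJ18 T cells. The T cell label held for the cells with a member. A UMI of Cd3 was present in 99.9% to 100% of Cd8 T cells with a member, and Ncr1, a defining gene of natural killer cells, was present in 0.917% to 3.69% of them. Ncr1 was more frequent among co-receptor-negative T cells with a member, at 11.7%, 13.6%, 10.4% and 15.6%. Cells with no contig, no UMI of Cd3 and a UMI of Ncr1 numbered 18, at a median of 1757.5 UMIs, of which 9 held a member.

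Summed over all pools, the 3 classes carried the family at different rates. At least 1 member was read in 3840 of 21181 Cd8 T cells (18.1%, 95% Wilson interval 17.6% to 18.7%), in 3050 of 6421 co-receptor-negative T cells (47.5%, 46.3% to 48.7%) and in 558 of 1749 TRAV11-TRAJ18 T cells (31.9%, 29.8% to 34.1%). These intervals cover counting error only, and the order of the classes was not the same in each pool. By the pool values given next, co-receptor-negative T cells were above TRAV11-TRAJ18 T cells in both Control pools and below them in both Runx1::Runx1t1 pools. Cd8 T cells were lowest of the 3 in every pool. As a reference for the level at which UMIs of the family turn up in other cells, Cd4 T cells held a member at 7.27%, 4.85%, 2.50% and 1.57% at median depths of 4599.5, 4605, 5152.5 and 5468 UMIs, and B cells did in 3 of 58.

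By pool, the share of cells with any member was 23.4%, 22.2%, 17.8% and 9.87% in Cd8 T cells. Both Runx1::Runx1t1 pools were below both Control pools, and they also differed from each other by more than the Control pools did. In co-receptor-negative T cells it was 62.4%, 59.0%, 25.4% and 16.8%, with a wide gap between the groups. In TRAV11-TRAJ18 T cells it was 30.8%, 33.3%, 32.0% and 31.1%, and the groups overlapped. With 2 pools a group, the two-sided exact permutation test could not go below p = 0.33, which it gave for Cd8 and for co-receptor-negative T cells, and it gave p = 1 for TRAV11-TRAJ18 T cells. When every cell was thinned to 2000 UMIs, the shares were 13.4%, 12.3%, 8.89% and 4.47% in Cd8 T cells, 43.6%, 39.4%, 16.2% and 10.7% in co-receptor-negative T cells and 19.7%, 22.6%, 20.9% and 21.1% in TRAV11-TRAJ18 T cells. The separation of the groups, or its lack, was therefore the same at equal depth.

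**Figure D1:**
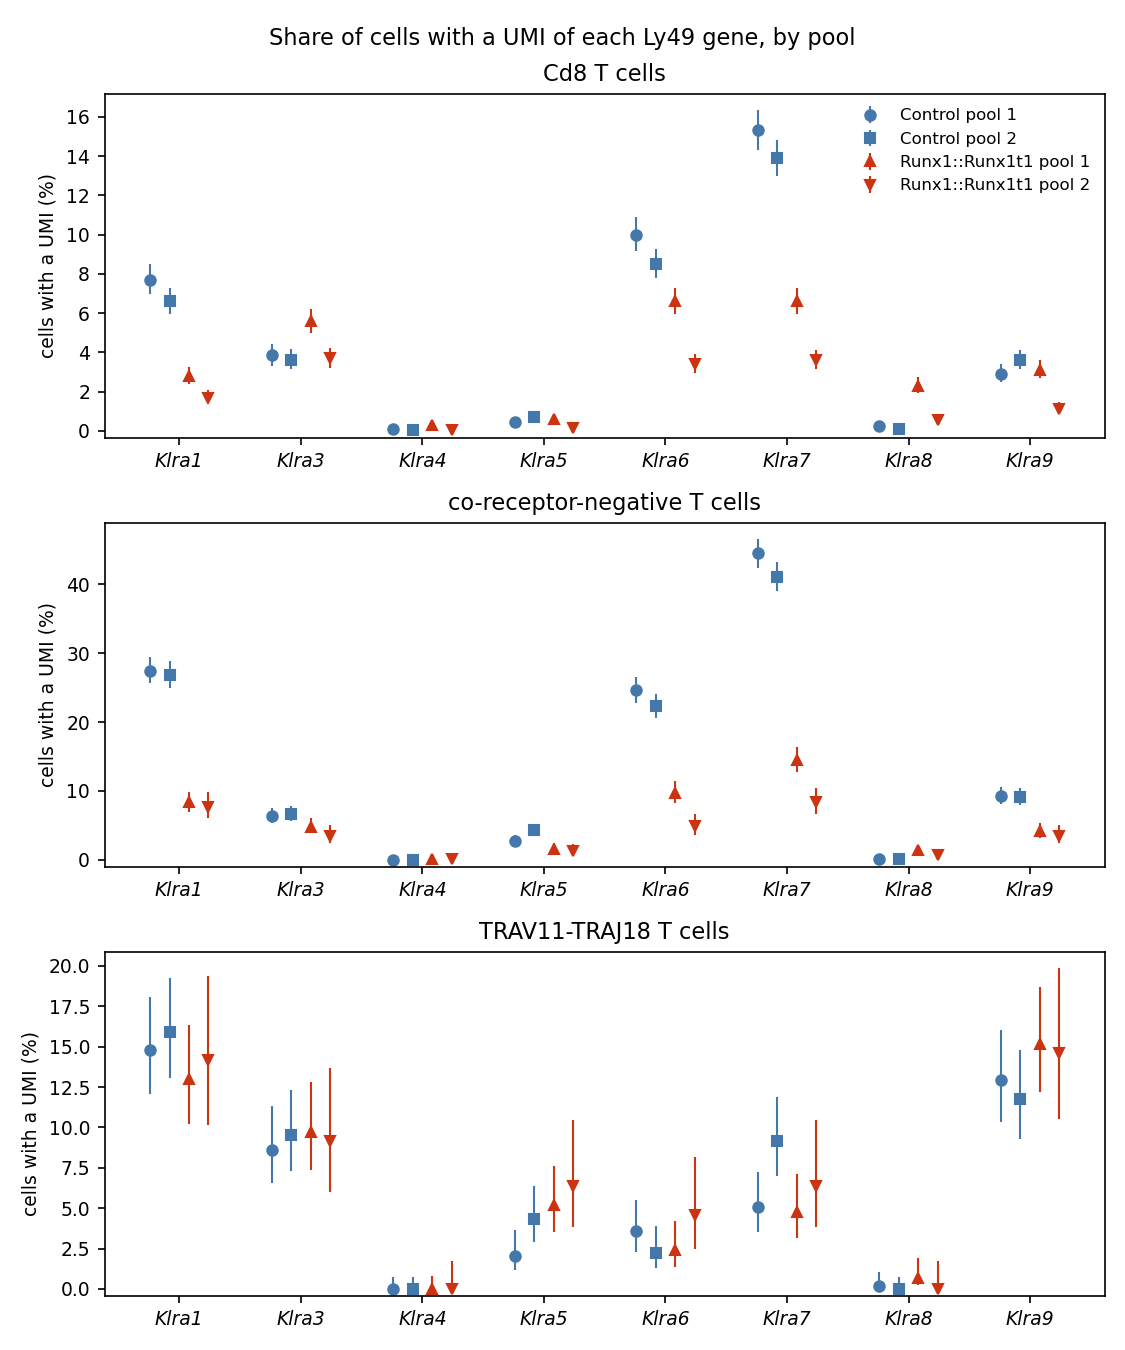
Percent of cells with at least 1 UMI of each member (y axis) for the 8 members (x axis), in Cd8, co-receptor-negative and TRAV11-TRAJ18 T cells, by pool, with 95% Wilson intervals as bars. Klra7 falls from 44.5% and 41.0% in the Control pools to 14.4% and 8.35% in co-receptor-negative T cells of the Runx1::Runx1t1 pools, while the pools of TRAV11-TRAJ18 T cells lie close together.

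Among the inhibitory receptors in Cd8 T cells, Klra7 and Klra1 were lower in both Runx1::Runx1t1 pools. Klra7 was read in 15.3%, 13.9%, 6.61% and 3.6% of Cd8 T cells, or at 63.4, 56.4, 26.5 and 14.1 CPM (UMIs of the gene scaled to the summed UMIs of the class in the pool). Klra1 was read in 7.71%, 6.60%, 2.78% and 1.68%, or 20.2, 19.3, 8.70 and 5.39 CPM. The same order of groups was seen for Klra6, at 9.98%, 8.49%, 6.61% and 3.39%. The pools of the groups did not overlap for these 3 members. Klra3, by contrast, was read in 3.84%, 3.63%, 5.58% and 3.69% of cells, and its groups overlapped. Klra9 was read in 2.91%, 3.59%, 3.11% and 1.14%, with the lowest value in Runx1::Runx1t1 pool 2 and the other pools close together. Klra5 was read in 0.446%, 0.693%, 0.586% and 0.145%, near its share in Cd4 T cells (0.462%, 0.393%, 0.245% and 0.0562%). Whether the UMIs in Cd4 T cells are background was not tested. Of genes seen in at least 1% of Cd8 T cells on average, 8.68% had both Runx1::Runx1t1 pools below both Control pools, and 60.3% had them above. Of the 5 members at that level 3 were below and 0 above.

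The activating receptors were rare in Cd8 T cells. Klra8 was found in 12, 5, 126 and 30 cells, or 0.255%, 0.091%, 2.31% and 0.543%. Its share in Cd4 T cells was 0.115%, 0%, 0.098% and 0.056%, so that the Control values were near those of Cd4 T cells and the Runx1::Runx1t1 values above them, mainly in pool 1. Klra4 was found in 4, 3, 17 and 3 cells, and 17 of the 27 cells were in Runx1::Runx1t1 pool 1.

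Summed per pool and tested by the quasi-likelihood test of edgeR with adjustment over 12951 genes, 0 of 7 members tested in Cd8 T cells passed an adjusted p of 0.05, where 0.0463% of all genes passed (0.0309% higher and 0.0154% lower). At an unadjusted p under 0.05 there were 4 members, where 2599 of the 12951 genes had one. DESeq2 called 3 members, 1 higher and 2 lower, where 474 of 12951 genes were higher and 212 lower. The log2 fold change of Runx1::Runx1t1 against Control was -1.53 for Klra1 (SE 0.25, adjusted p = 0.0762), -1.61 for Klra7 (SE 0.31, adjusted p = 0.0916), -0.80 for Klra6 (SE 0.29, adjusted p = 0.212) and 3.86 for Klra8 (SE 0.82, adjusted p = 0.103). Klra3 (0.47), Klra5 (-0.58) and Klra9 (-0.66) had adjusted p-values from 0.312 to 0.698. The count of calls changed with the test, the cells and the pools used. Among Cd8 T cells whose clonotype had only 1 cell, an alternative added after the data were seen, Klra1 (-1.13, adjusted p = 0.00945) and Klra7 (-1.28, adjusted p = 0.0105) fell and Klra8 (4.76, adjusted p = 0.0126) rose. Of 12524 genes tested in those cells 415 were higher and 239 lower. Fits without 1 of the Runx1::Runx1t1 pools assume that the lone pool varies like the Control pools, so effect sizes are given in place of calls. Over all alternatives, these fits included, the log2 fold change ran from -1.99 to -1.13 for Klra1 and from -2.20 to -1.18 for Klra7. It ran from -1.33 to -0.41 for Klra6 and from 2.69 to 5.15 for Klra8.

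In co-receptor-negative T cells, which held the inhibitory receptors in a larger share of cells, both Runx1::Runx1t1 pools were again lower. This class also takes in Cd8 and Cd4 T cells whose co-receptor UMIs were missed. Cells read as Cd4 T cells numbered 866, 763, 2040 and 1780 by pool. The part of such cells in the group differences of the co-receptor-negative class was not tested. Klra7 was read in 44.5%, 41.0%, 14.4% and 8.35% of cells, or 216, 200.1, 97.9 and 55.6 CPM. Klra1 was read in 27.5%, 26.8%, 8.33% and 7.73%, and Klra6 in 24.6%, 22.3%, 9.75% and 4.99%. Klra9 was read in 9.24%, 9.17%, 4.13% and 3.49%. In each of these 4 the Control pools lay close together and at over 2 times the higher Runx1::Runx1t1 pool. Klra3, at 6.38%, 6.67%, 4.84% and 3.49%, and Klra5, at 2.82%, 4.27%, 1.64% and 1.25%, showed a smaller gap, again with no overlap. Cells of the Runx1::Runx1t1 pools were shallower in this class, and of genes seen in at least 1% of its cells 47.9% had both Runx1::Runx1t1 pools below both Control pools, so that this order for all 6 inhibitory members is read against that share. Klra8 went the other way, with 2, 3, 20 and 6 cells (0.094%, 0.144%, 1.42% and 0.748%), and Klra4 was found in 0, 0, 1 and 1 cells, where 0 of 2131 Control pool 1 cells allows up to 0.141%.

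Scaled to the summed UMIs, 5 of 7 members tested changed in co-receptor-negative T cells, 4 lower and 1 higher, where 12.3% of 11423 genes did (7.45% higher and 4.87% lower). The log2 fold change was -1.5 for Klra7 (SE 0.20, adjusted p = 0.0019), -1.24 for Klra1 (SE 0.09, adjusted p = 7.87e-05), -1.31 for Klra6 (SE 0.21, adjusted p = 0.00447) and -0.92 for Klra9 (SE 0.11, adjusted p = 0.00126). Klra8 rose by 2.79 (SE 0.47, adjusted p = 0.0054), a call that was lost without Runx1::Runx1t1 pool 1 (2.03, adjusted p = 0.0857). Klra3 (-0.14, adjusted p = 0.645) and Klra5 (-0.69, adjusted p = 0.227) did not pass.

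Genes that work with the receptors were read from the same fit. Of the 6 adaptors and kinases tested, Tyrobp fell by 1.31 and Fcer1g, an adaptor of several activating receptors, fell by 1.32 on the log2 scale, while Cd247, the zeta chain of the T cell receptor complex, rose by 0.44. Of the 3 inhibitory phosphatases Ptpn6 fell by 0.53. Of the 4 MHC class I genes, which encode ligands or their light chain, H2-T23 rose by 0.38. Of 13 other receptor genes of the natural killer complex 8 fell and 1 rose, with a median of -1.05 against a median of -0.0045 over all genes. Klrc3 (-1.73), Klri2 (-1.57), Klrk1 (-1.53) and Klrc1 (-1.48) were among those that fell, and Klrg1, a receptor of differentiated effector cells, rose (1.67). Of 8 inhibitory receptors outside the complex 6 rose, among them Havcr2 (3.98), Lag3 (2.63), Ctla4 (2.40) and Pdcd1 (2.15), and Cd160 fell (-0.85). The T cell transcription factor gene Tbx21 fell (-0.87), whereas Prdm1 (1.91) and Zbtb16 (1.20) rose.

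Marker genes of other cell types moved with the group. The list of 7 natural killer genes, which includes receptor and adaptor genes just named, summed to 1233, 1149, 656 and 561 CPM in co-receptor-negative T cells, and 320, 281, 257 and 207 in Cd8 T cells, and their part in the result was not tested. The list of 5 myeloid genes summed to 659, 130, 12.0 and 35.0 CPM in co-receptor-negative, 178, 69.7, 24.3 and 7.12 in Cd8 and 562, 168, 5.31 and 5.92 in TRAV11-TRAJ18 T cells, and its part was not tested either. The share of co-receptor-negative T cells with a UMI of Klrb1c, which encodes NK1.1, was also lower in the Runx1::Runx1t1 pools, with 1102 of 2131, 1050 of 2083, 310 of 1405 and 129 of 802 cells. Within cells with a Klrb1c UMI, any member was read in 85.0%, 83.8%, 73.5% and 74.4%. Without one it was read in 38.1%, 33.8%, 11.8% and 5.79%. The gap between the groups was thus smaller inside the Klrb1c-bearing cells. There Klra7 was read in 61.7%, 60.2%, 45.2% and 34.9% of cells and fell by 0.51 on the log2 scale (SE 0.11, adjusted p = 0.0452). Klra1, at 41.6%, 39.6%, 26.1% and 39.5%, gave -0.22 (SE 0.17, adjusted p = 0.651), and Klra6 gave -0.38 (SE 0.14, adjusted p = 0.248). Klra9 was at 0.20 (adjusted p = 0.567). Klra3, read in 8.62%, 9.43%, 12.6% and 15.5%, rose by 0.91 (SE 0.14, adjusted p = 0.00511), and Klra8, read in 0.181%, 0.190%, 3.55% and 4.65%, rose by 3.52 (SE 0.44, adjusted p = 0.00156). So 3 members passed in the Klrb1c-bearing cells, 1 lower and 2 higher, and the calls of Klra1, Klra6 and Klra9 in the whole class were lost there. Far fewer genes of any kind passed in these cells, with 107 higher and 41 lower of 10122. In the whole class 851 were higher and 556 lower of 11423, so the lost calls are read against that drop.

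**Figure D2:**
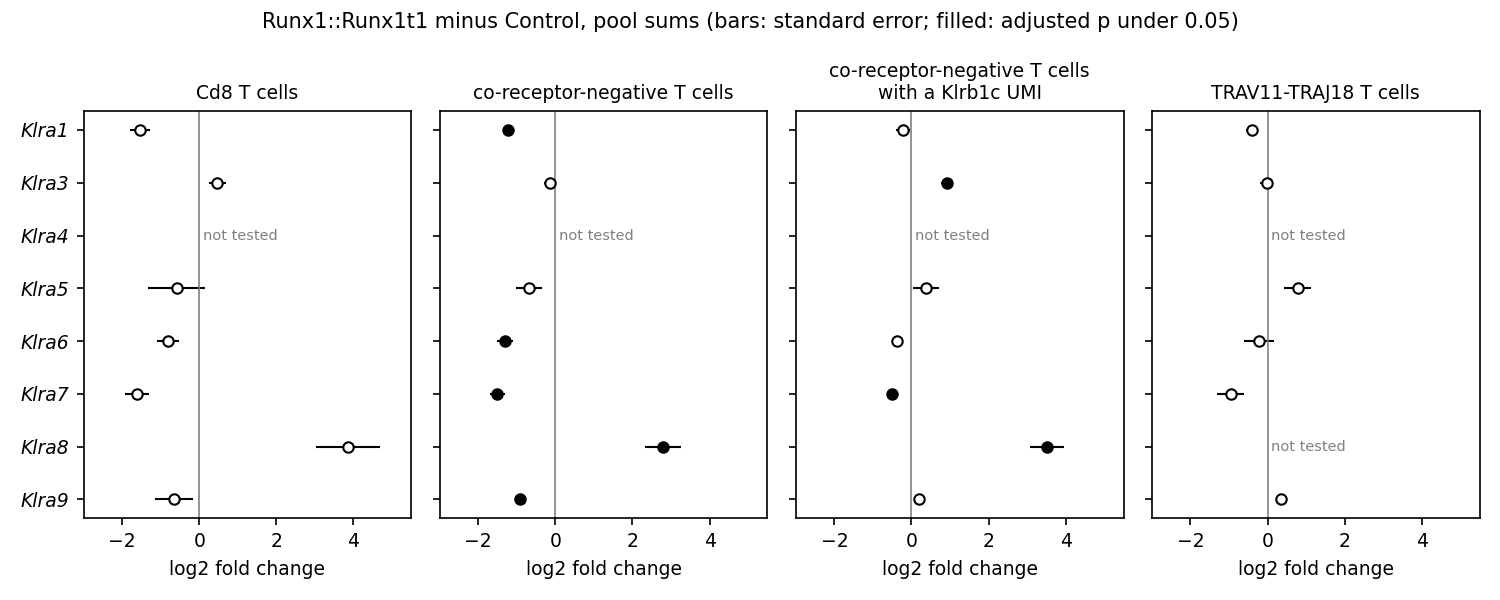
Log2 fold change of Runx1::Runx1t1 against Control (x axis, bars are 1 SE) for each member (y axis) from edgeR fits of pool sums in Cd8 T cells, co-receptor-negative T cells, co-receptor-negative T cells with a Klrb1c UMI, and TRAV11-TRAJ18 T cells, with filled points for an adjusted p under 0.05. Klra7 lies at -1.61, -1.5, -0.51 and -0.96 in these 4, and Klra8 at 3.86, 2.79 and 3.52 in the first 3. The value of -0.96 did not pass, and 91 of the 199 Klra7 UMIs of Control pool 2 behind it came from 1 clonotype.

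TRAV11-TRAJ18 T cells showed another set of members and no shift of the family. Klra1 was read in 14.8%, 15.9%, 13.0% and 14.2% of cells, Klra9 in 12.9%, 11.8%, 15.2% and 14.6%, and Klra3 in 8.63%, 9.53%, 9.74% and 9.13%. Klra7 was read in 5.07%, 9.16%, 4.76% and 6.39%, Klra6 in 3.56%, 2.24%, 2.38% and 4.57%, and Klra5 in 2.06%, 4.30%, 5.19% and 6.39%. Klra9 and Klra5 were higher and Klra1 lower in both Runx1::Runx1t1 pools, where 45.6% of genes at this level were higher and 6.01% lower. Klra4 was read in 0 of 1749 cells, which allows a share of up to 0.172%, and Klra8 in 4 cells. By edgeR 0 of 6 members tested passed, where 0.799% of 9635 genes did (0.457% higher and 0.343% lower). At an unadjusted p under 0.05 there were 4 members by edgeR, where 919 of the 9635 genes had one, and 0 by DESeq2, which also called 0. The values were -0.40 for Klra1 (adjusted p = 0.403), -0.96 for Klra7 (adjusted p = 0.395), 0.35 for Klra9 (adjusted p = 0.383) and 0.78 for Klra5 (adjusted p = 0.508). Klra7 stood at 24.7, 65.4, 18.4 and 29.6 CPM. Of its 199 UMIs in Control pool 2, the highest pool, 91 came from 1 clonotype of 13 cells, and the value without that clonotype was not tested. In this class Tyrobp fell by 0.99 and the granzyme genes Gzmb (1.64) and Gzma (1.43) rose, and none of 10 other natural killer complex receptor genes passed.

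Whether the group difference itself differed between classes was tested by interaction terms. Between co-receptor-negative and Cd8 T cells 0 of 8 members passed in edgeR and in DESeq2, where 1.89% of all genes passed by edgeR (1.18% above 0 and 0.704% below). Each tool had 2 members at an unadjusted p under 0.05, where 2205 of 12929 genes had one by edgeR and 808 genes by DESeq2. The nearest were Klra6 (-0.56, adjusted p = 0.0609) and Klra3 (-0.65, adjusted p = 0.0694). Between TRAV11-TRAJ18 and co-receptor-negative T cells, a test added after the values were seen, 3 of 7 members passed, where 4.63% of genes did (2.37% above 0 and 2.26% below). The interaction was 1.26 for Klra9 (SE 0.17, adjusted p = 9.21e-05), 0.86 for Klra1 (SE 0.18, adjusted p = 0.00648) and 1.43 for Klra5 (SE 0.37, adjusted p = 0.0313), each with a higher value in TRAV11-TRAJ18 T cells. All 3 calls were lost when only co-receptor-negative T cells with a Klrb1c UMI were used, where Klra9 gave 0.14 (adjusted p = 0.897). In that fit 45 of 10029 genes passed above 0 and 81 below. DESeq2 called only Klra9.

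Across classes, with the pool as a block, 6 of 8 members were higher in co-receptor-negative than in Cd8 T cells and 0 lower, where 16.5% of 12929 genes passed in either direction with 9.47% higher and 7.06% lower. Klra5 was higher by 2.88 (SE 0.24, adjusted p = 0.001), Klra1 by 2.32 (SE 0.13, adjusted p = 0.000292), Klra7 by 1.73 (SE 0.05, adjusted p = 7.73e-05), Klra9 by 1.67 (SE 0.21, adjusted p = 0.0041) and Klra6 by 1.13 (SE 0.12, adjusted p = 0.00251) on the log2 scale. Klra3 was higher by 0.53 (SE 0.14, adjusted p = 0.0465), which was lost without either Control pool, without Runx1::Runx1t1 pool 1 and without the block. Of 13 other natural killer complex receptor genes tested 12 were higher and 0 lower, with Klrb1a at 3.42, Klrb1b at 3.35, Klrb1c at 2.47 and Klrb1f at 2.30. Fcer1g (2.72) and Tyrobp (2.58) were higher, as were Zbtb16 (2.86), Ikzf2 (1.68) and Cd44 (0.90). Lower were the naive T cell genes Dapl1 (-2.71) and Ccr7 (-1.90) and the granzyme genes Gzmk (-1.69) and Gzmm (-1.63).

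TRAV11-TRAJ18 T cells differed from Cd8 T cells in both directions, with 4 of 7 members higher and 2 lower, where 18.3% of 12615 genes were higher and 17.6% lower. Klra5 (3.48, SE 0.48), Klra9 (2.99, SE 0.28), Klra1 (2.09, SE 0.20) and Klra3 (1.21, SE 0.15) were higher, all with adjusted p-values of at most 0.000238. Klra6 (-1.42, SE 0.25, adjusted p = 0.00119) and Klra8 (-3.20, SE 0.55, adjusted p = 0.00106) were lower, and the Klra8 call was lost without doublet removal, without the block and without Runx1::Runx1t1 pool 1. Klra7 gave -0.49 (adjusted p = 0.196), so its levels in these classes were not separated. Of 12 other natural killer complex receptor genes 9 were higher, among them Klrb1b (5.10) and Klrb1c (3.55), as was Zbtb16 (5.70), the gene of the factor that sets the natural killer T cell program. In the lists, 3 of 10 cytotoxic genes were higher and 5 lower, and 5 of 14 transcription factor genes were higher and 6 lower. Of 8 naive genes 1 was higher and 6 lower, and the 8 inhibitory receptors outside the complex gave the same counts. Among the lower ones were Eomes (-3.15), Dapl1 (-5.00), Gzmm (-3.83), Gzmk (-3.30), Havcr2 (-5.23) and Lag3 (-4.36).

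Against co-receptor-negative T cells, TRAV11-TRAJ18 T cells were higher in Klra9 (1.22, SE 0.21, adjusted p = 0.00236) and Klra3 (0.66, SE 0.11, adjusted p = 0.00189) and lower in Klra6 (-2.67, SE 0.24, adjusted p = 3.55e-05), Klra7 (-2.23, SE 0.25, adjusted p = 0.000125) and Klra8 (-3.19, SE 0.56, adjusted p = 0.00233), where 23.4% of 10425 genes passed (11.1% higher and 12.3% lower). Klra1 (-0.24, adjusted p = 0.328) and Klra5 (0.50, adjusted p = 0.305) did not pass. The Klra8 call was lost without doublet removal. It rests on few cells, as Klra8 was read in 4 of 1749 TRAV11-TRAJ18 T cells. The co-receptor-negative T cells that held it were mostly from the Runx1::Runx1t1 pools. When only co-receptor-negative T cells with a Klrb1c UMI were used, Klra3 gave -0.20 (adjusted p = 0.385), Klra9 gave 0.24 (adjusted p = 0.032), and Klra1 (-1.14, adjusted p = 2.54e-06) and Klra5 (-0.64, adjusted p = 0.00516) were lower in TRAV11-TRAJ18 T cells. With the whole co-receptor-negative class, the order of the classes by level differed between members. Klra6 was highest in co-receptor-negative T cells, then Cd8, then TRAV11-TRAJ18 T cells, with each step past the test. Klra7 was highest in co-receptor-negative T cells, with the other two not separated. Klra1 and Klra5 were lowest in Cd8 T cells, and the other two were not separated. Klra9 was highest in TRAV11-TRAJ18 T cells, then co-receptor-negative, then Cd8 T cells. Klra3 had the same order with steps that did not hold in the alternatives given for it.

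Over the sums of 5 classes (Cd8, Cd4, co-receptor-negative, TRAV11-TRAJ18 and Trdc cells) in 4 pools, the genes whose log2 level ran most like that of the summed family were Klre1 (Pearson r = 0.97 over 20 sums), Klrc2 (0.95), Klrk1 (0.95), Evl (0.92), Rnf130 (0.92), Klrd1 (0.92), Klrc1 (0.90), 4930486L24Rik (0.89), Slc11a2 (0.89) and Emid1 (0.88), of 6906 genes ranked. Klre1, Klrc2, Klrk1, Klrd1 and Klrc1 are receptor genes of the same gene complex. Among members, Klra6 and Klra7 gave r = 0.94, Klra3 and Klra9 0.89, Klra1 and Klra9 0.86, and Klra1 and Klra5 0.84, while Klra4 and Klra8 gave 0.56. The 20 sums share 4 libraries, so these values are a description.

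Many cells carried more than 1 receptor gene. Of the 3840 positive Cd8 T cells, 2111 held UMIs of 1 member, 1151 of 2, 480 of 3, 91 of 4 and 7 of 5. Of the 3050 positive co-receptor-negative T cells, 1277 held 1, 1121 held 2, 532 held 3, 94 held 4 and 26 held 5. Of the 558 positive TRAV11-TRAJ18 T cells, 316 held 1, 171 held 2, 54 held 3, 14 held 4 and 3 held 5. At least 2 members were thus read in 45%, 58.1% and 43.4% of positive cells in these classes. Deeper cells show more genes, and positive cells had median UMIs of 8550 against 6878 in negative Cd8 T cells, 7047.5 against 4753 in co-receptor-negative T cells and 6041.5 against 5712 in TRAV11-TRAJ18 T cells. After thinning to 2000 UMIs the shares were 23.5%, 33.0% and 25.8%, with co-receptor-negative T cells still highest. Cells with 2 beta chain contigs, which can be doublets, made up 12.5%, 12.6%, 14.3% and 12.3% of positive against 7.66%, 6.73%, 7.19% and 6.61% of negative Cd8 T cells, and 6.47%, 5.94%, 4.76% and 5.19% against 5.49%, 5.5%, 3.34% and 4.80% of co-receptor-negative T cells. Their part in the counts of receptors and of pairs was not tested.

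By pool, at least 2 members were read in 51.4%, 48.1%, 41.0% and 32.5% of positive Cd8 T cells, and after thinning in 27.7%, 23.5%, 21.5% and 16.3%. Both Runx1::Runx1t1 pools were below both Control pools on either scale. In positive co-receptor-negative T cells the values were 59.1%, 57.7%, 56.0% and 57.8%, and after thinning 31.5%, 32.3%, 39.1% and 40.5%. In that class, where far fewer cells were positive in the Runx1::Runx1t1 pools, the cells that were positive held no fewer receptor genes at equal depth. In positive TRAV11-TRAJ18 T cells the values were 37.2%, 46.6%, 43.9% and 48.5%, with 18.3%, 32.5%, 21.1% and 34.8% after thinning and the groups overlapping on both scales.

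**Figure D3:**
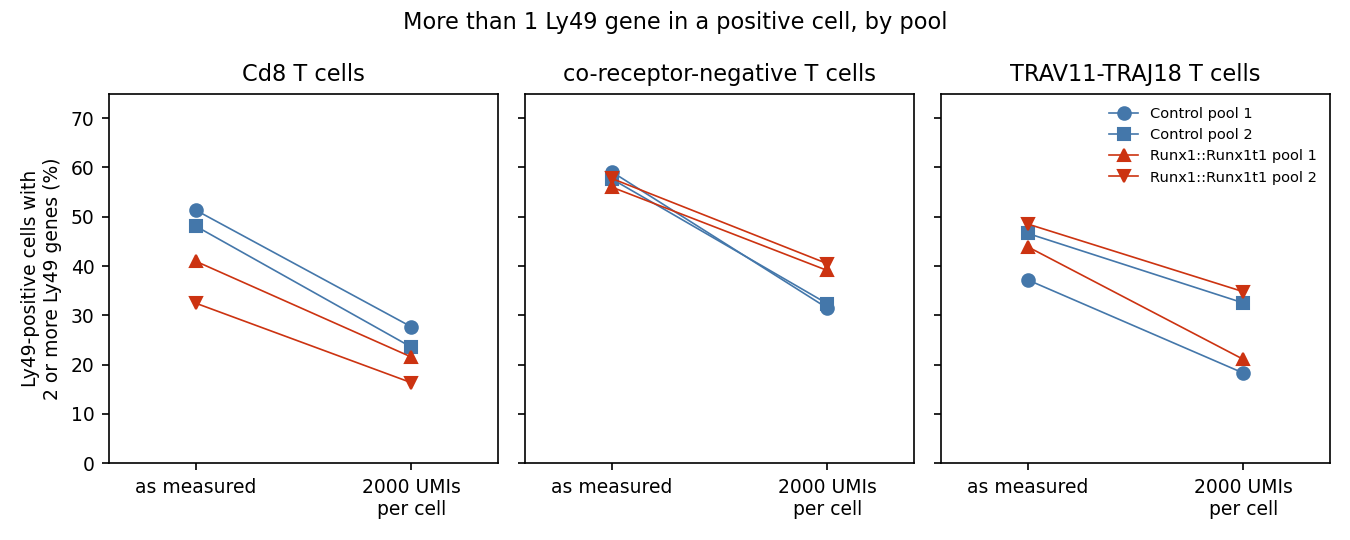
Percent of member-positive cells with UMIs of at least 2 members (y axis) in Cd8, co-receptor-negative and TRAV11-TRAJ18 T cells (x axis), by pool, as measured and with every cell thinned to 2000 UMIs. In Cd8 T cells the measured values run from 51.4% and 48.1% in the Control pools to 41.0% and 32.5% in the Runx1::Runx1t1 pools.

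The leading combinations were not the same in the 3 classes. In Cd8 T cells 81 different sets of members were seen, led by Klra7 alone (19% of positive cells), Klra3 alone (12.7%) and Klra6 with Klra7 (10.5%). Klra7 alone took 22.1%, 24.8%, 11.5% and 13.0% of positive Cd8 T cells by pool, and Klra3 alone took 19.2% and 28.1% in the Runx1::Runx1t1 pools. In co-receptor-negative T cells 70 sets were seen, led by Klra7 alone (20.2%), Klra6 with Klra7 (12.1%) and Klra1 with Klra7 (11.8%). In TRAV11-TRAJ18 T cells 45 sets were seen, led by Klra1 alone (19%), Klra3 alone (16.5%), Klra9 alone (14.5%) and Klra1 with Klra9 (6.81%).

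Pairs were seen together more often than the product of their shares gives. Klra6 and Klra7 were both read in 843 Cd8 T cells, where the product over pools gives 167, a ratio of 5.04, and Klra1 and Klra7 in 573, where it gives 119, a ratio of 4.80. The pair Klra1 and Klra3 was nearer the product, with 89 cells against 39.0. In co-receptor-negative T cells, where more cells were positive, the ratio was 1.86 for Klra6 and Klra7 (829 cells), 1.65 for Klra1 and Klra7 (843 cells) and 1.15 for Klra3 and Klra7 (149 cells), and it was 3.40 for Klra5 and Klra9 (51 cells against 15). A single clonotype of 37 cells in Control pool 2, given below, held Klra5 in 35 cells and Klra9 in 29, so much of this last pair lay in 1 clonotype. In TRAV11-TRAJ18 T cells Klra1 and Klra9 were read together in 76 cells against 33.9, a ratio of 2.24. Klra1 and Klra7 were read together in 62 against 16.6, a ratio of 3.73, and 13 of the 62 cells were 1 clonotype of Control pool 2. Depth and clonotypes that differ between cells also enter these ratios, and their part was not tested.

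Cd8 T cells with a member UMI were next compared with Cd8 T cells without one inside each pool. With members and other Klra rows left out of the counts, 937 genes were higher (7.72% of 12145) and 877 lower (7.22%), or 14.9% in all. Of 12 other natural killer complex receptor genes 11 were higher and 0 lower, with a median of 2.96. Klrb1a was higher by 5.38 (SE 0.24, adjusted p = 1.36e-05), Klrc3 by 3.88 (SE 0.31, adjusted p = 0.000319), Klrb1c by 3.67 (SE 0.12, adjusted p = 6.5e-06) and Klrc2 by 3.28 (SE 0.08, adjusted p = 1.75e-06) on the log2 scale. The adaptor genes Fcer1g (3.83, SE 0.15, adjusted p = 8.75e-06) and Tyrobp (2.72, SE 0.09, adjusted p = 6.5e-06) were higher, and so were the kinase gene Syk (0.96) and the phosphatase gene Ptpn6 (0.35). Of 8 virtual memory genes, a list for memory-like cells that have not met their antigen, 7 were higher, among them Il2rb (0.96), Cd44 (0.90), Il18r1 (0.77) and Ly6c2 (0.65), and Itga4 was lower (-0.54). Of 14 transcription factor genes 4 were higher and 3 lower, and the higher ones were Ikzf2, which encodes Helios (1.63), Nfil3 (0.99), Tbx21 (0.66) and Eomes (0.62). Of 8 inhibitory receptors outside the complex, Ctla4 (-2.15), Pdcd1 (-1.86), Lag3 (-1.61) and Havcr2 (-1.30) were lower and Cd160 was higher (1.37). Of 10 cytotoxic genes 1 was higher and 2 lower, and of 8 naive genes 1 was higher and 5 lower. Among the lower ones were Gzmk (-1.95) and the naive genes Dapl1 (-1.84) and Ccr7 (-1.67). Positive cells were deeper than negative ones, as given above, and the part of depth in these values was not tested.

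Other genes of large change were Klre1 (3.17), Kifc3 (2.79), Cym (2.77), Rbpms (2.53), Qrfp (2.44) and Bmp7 (2.27) on the higher side, and Ifngr2 (-2.90), Igfbp4 (-2.85), Gm14085 (-2.82), Actn2 (-2.23), Als2cl (-1.81) and Inpp4b (-1.75) on the lower side. Among positive Cd8 T cells, natural killer genes were read in a larger share in the Control pools than in the Runx1::Runx1t1 pools. A UMI of Fcer1g was present in 56.7%, 54.1%, 25.1% and 16.5% of positive Cd8 T cells and in 2.0% to 6.0% of negative ones, and Tyrobp was present in 29.5%, 27.6%, 17.7% and 12.5% of positive cells. Klrb1c was present in 40.1%, 46.6%, 26.5% and 18.5%. Positive co-receptor-negative T cells held Fcer1g at 81.9%, 83.2%, 73.1% and 67.4% and Klrb1c at 70.5%, 71.6%, 63.9% and 71.1%. In TRAV11-TRAJ18 T cells Fcer1g was present in 48.8%, 48.3%, 55.4% and 39.7% of positive and 11.4%, 12.0%, 10.8% and 7.3% of negative cells, whereas Zbtb16 was read in 32.3%, 23%, 35.8% and 32.4% of positive and 35.5%, 37.3%, 49.0% and 53.6% of negative cells.

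Clone size was read from the T cell receptor libraries, in which cells of a pool with the same receptor form a clonotype. In Cd8 T cells any member was read in 21.0% of cells whose clonotype had 1 cell, 12.2% at 2 to 4 cells, 8.70% at 5 to 19 and 7.28% at 20 or more. Median UMIs per cell were 7664, 5863, 5747.5 and 5672 in these bins. The decline from single cells to clonotypes of 5 to 19 cells was present in each pool, from 23.9% to 13.0% in Control pool 1, from 24.1% to 9.47% in Control pool 2, from 19.4% to 9.56% in Runx1::Runx1t1 pool 1 and from 14.4% to 4.44% in Runx1::Runx1t1 pool 2. At 20 or more cells it was 12.0% in Control pool 2 (92 cells), 17.2% in Runx1::Runx1t1 pool 1 (632 cells) and 3.84% in Runx1::Runx1t1 pool 2 (1953 cells), and Control pool 1 had no clonotype of that size. Since depth fell with clone size, the cells were also thinned to 2000 UMIs, and any member was then read in 13.7%, 13.1%, 9.28% and 6.91% of single-cell clonotypes, 8.03%, 5.65%, 6.79% and 0.749% at 5 to 19 cells and, in the 3 pools that had them, 8.79%, 9.62% and 1.24% at 20 or more. In Runx1::Runx1t1 pool 1 the decline was small at equal depth, and its cells in clonotypes of 20 or more were together not below the single cells. Positive cells were spread unevenly over those clonotypes, with 32 of 74, 17 of 62, 16 of 111 and 15 of 27 cells in some and 0 of 102 in another. The share in that bin thus rests on a few clonotypes.

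The members differed in how they followed clone size. Klra7 was read in 15.8%, 15.4%, 8.01% and 6.09% of single-cell clonotypes and in 5.80%, 1.75%, 3.36% and 0% at 5 to 19 cells. Klra6 went from 10.4%, 9.36%, 8.30% and 5.93% to 1.45%, 1.75%, 2.58% and 0%, and Klra1 from 7.95%, 7.35%, 3.58% and 2.87% to 2.17%, 1.05%, 0.26% and 0%. Klra9 did not decline in 3 of the 4 pools, at 2.87%, 3.46%, 2.46% and 1.4% of single-cell clonotypes and 3.62%, 4.91%, 4.39% and 0.74% at 5 to 19 cells. Klra3 fell in the Control pools (4.11% to 0% and 3.98% to 1.75%), and in clonotypes of 20 or more cells it was read in 9.02% of cells in Runx1::Runx1t1 pool 1. Most of those Klra3 cells lay in a few clonotypes, which held it in 19 of 74, 15 of 111 and 13 of 27 cells. After thinning, Klra7 went from 8.26%, 7.08%, 3.03% and 2.62% to 2.19%, 1.06%, 2.61% and 0%, and Klra6 from 3.83%, 3.26%, 2.54% and 1.93% to 1.46%, 1.06%, 2.09% and 0%, so that both changed little in Runx1::Runx1t1 pool 1. Klra9 went from 1.07%, 1.05%, 0.83% and 0.589% to 2.92%, 2.83%, 3.13% and 0.375%.

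**Figure D4:**
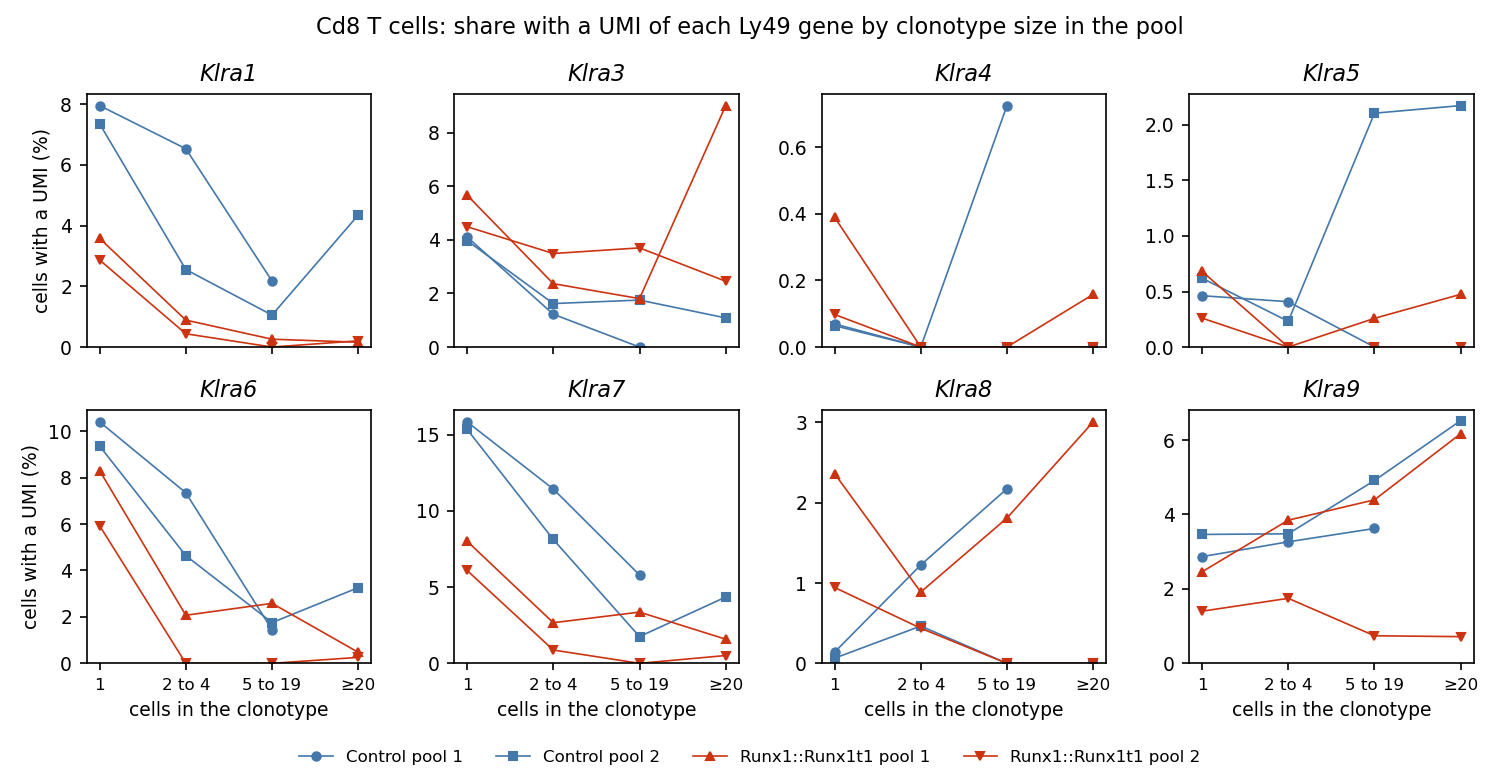
Percent of Cd8 T cells with a UMI of each member (y axis) by the number of cells in their clonotype (x axis, 1, 2 to 4, 5 to 19, and 20 or more), 1 panel a member and 1 line a pool. Klra1, Klra6 and Klra7 are highest in the single-cell bin in each pool, whereas Klra9 is not in 3 pools.

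Fitted as clonotypes of at least 5 cells against those of 1 cell with the pool as a block, 3 of 8 members were lower and 0 higher, where 12.6% of 12670 genes were lower, 11.5% higher and 24.2% passed in all. Klra6 fell by 3.30 (SE 0.43, adjusted p = 0.00295), Klra1 fell by 2.96 (SE 0.62, adjusted p = 0.0157) and Klra7 fell by 2.50 (SE 0.44, adjusted p = 0.00882) on the log2 scale. The call of Klra1 was lost without Runx1::Runx1t1 pool 1 (adjusted p = 0.0749), and that of Klra7 when clonotypes from 2 cells on were counted as expanded (adjusted p = 0.0631). Klra9 gave 0.61 (SE 0.37, adjusted p = 0.268) and Klra3 -0.70 (SE 0.40, adjusted p = 0.24). In the same fit all 8 naive genes were lower, among them Ccr7 (-5.44) and Dapl1 (-4.86). Of 10 cytotoxic genes 8 were higher, led by Gzma (4.49), Gzmk (3.90) and Gzmb (3.37), and all 8 inhibitory receptors outside the complex were higher, with Havcr2 at 5.03, Pdcd1 at 4.56 and Lag3 at 3.99. Of 12 other natural killer complex receptor genes Klrc3 (-3.36), Klrb1a (-2.42) and Klrc2 (-2.16) were lower, and Klrg1 was higher (3.27). Fcer1g was lower (-1.62), Prdm1 higher (3.05) and Tcf7 lower (-1.87).

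Single clonotypes of 10 or more cells show whether progeny of a cell carry the same receptors. There were 68 such clonotypes in Cd8 T cells (3111 cells), of which 29 held no member UMI, 8 held a member in at least 25% of cells and 2 in at least 50%. Co-receptor-negative T cells had 7 (139 cells), of which 2 held none and 3 held a member in at least 50%, and TRAV11-TRAJ18 T cells had 1. In the Runx1::Runx1t1 pools, 21, 20, 12 and 11 co-receptor-negative cells came from clonotypes of 121, 86, 46 and 35 cells over all classes. A member was read in 1, 1, 0 and 0 of them, and most cells of these clonotypes lay in other classes. The sequences below are the joining regions (CDR3) of the alpha and beta chains of 6 clonotypes, chosen after their values were seen because most of their cells held a member.
Co-receptor-negative, Control pool 2, 37 cells, TRAV12D-3 with TRAJ7: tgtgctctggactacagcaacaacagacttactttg
The same clonotype, TRBV13-3 with TRBJ2-7: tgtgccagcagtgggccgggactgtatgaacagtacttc
Co-receptor-negative, Runx1::Runx1t1 pool 1, 21 cells, TRAV12-2 with TRAJ43: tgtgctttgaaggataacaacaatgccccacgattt
The same clonotype, TRBV5 with TRBJ2-7: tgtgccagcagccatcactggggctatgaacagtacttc
Co-receptor-negative, Control pool 1, 17 cells, TRAV6N-7 with TRAJ31: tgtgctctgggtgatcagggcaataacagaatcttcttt
The same clonotype, TRBV12-1 with TRBJ2-1: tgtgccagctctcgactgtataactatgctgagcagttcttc
Cd8, Runx1::Runx1t1 pool 2, 32 cells, TRAV13-1 with TRAJ47: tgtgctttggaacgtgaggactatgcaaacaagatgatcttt
The same clonotype, TRBV20 with TRBJ2-4: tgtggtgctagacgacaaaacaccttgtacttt
Cd8, Runx1::Runx1t1 pool 1, 27 cells, TRAV14-1 with TRAJ49: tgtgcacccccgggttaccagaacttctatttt
The same clonotype, TRBV19 with TRBJ1-2: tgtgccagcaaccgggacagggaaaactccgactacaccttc
TRAV11-TRAJ18, Control pool 2, 13 cells, alpha chain: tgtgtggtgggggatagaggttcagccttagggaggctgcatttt
The same clonotype, beta chain: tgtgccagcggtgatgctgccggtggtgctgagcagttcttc

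In the co-receptor-negative clonotype of 37 cells, Klra1 was read in 36 cells, Klra7 in 36, Klra5 in 35, Klra9 in 29 and Klra6 in 17, and Klra3 and Klra8 in 0. In that of 21 cells from Runx1::Runx1t1 pool 1, Klra7 was read in 20, Klra9 in 10, Klra6 in 9, Klra8 in 4, Klra5 in 1 and Klra1 in 0. In that of 17 cells, Klra7 was read in 16, Klra1 in 14, Klra6 in 12 and Klra9 in 5. Each of these clonotypes held a different set of members, and the leading member was in nearly all cells. In the TRAV11-TRAJ18 clonotype Klra1 and Klra7 were read in all 13 cells, and the other 6 members in 0.

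The large Cd8 clonotypes carried fewer members and mostly Klra3 or Klra9. The largest, with 1093 cells in Runx1::Runx1t1 pool 2, held a member in 28 cells (2.56%), of which 20 held Klra3. One of 111 cells in Runx1::Runx1t1 pool 1 held Klra3 in 15, and one of 102 cells there held no member, which allows a share of up to 2.94%. A clonotype of 74 cells in the same pool held a member in 32 cells (43.2%), with Klra3 in 19, Klra9 in 13 and Klra8 in 7. In the Cd8 clonotype of 32 cells shown above 19 were positive (59.4%), 16 of them for Klra3, and in that of 27 cells 15 were positive (55.6%), 13 of them for Klra3 and 3 for Klra8. The clonotypes of 74 and 27 cells came from the same pool and had the same alpha chain joining region with different beta chains. They were counted as separate clonotypes, and whether they are 1 clone was not tested.

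**Figure D5:**
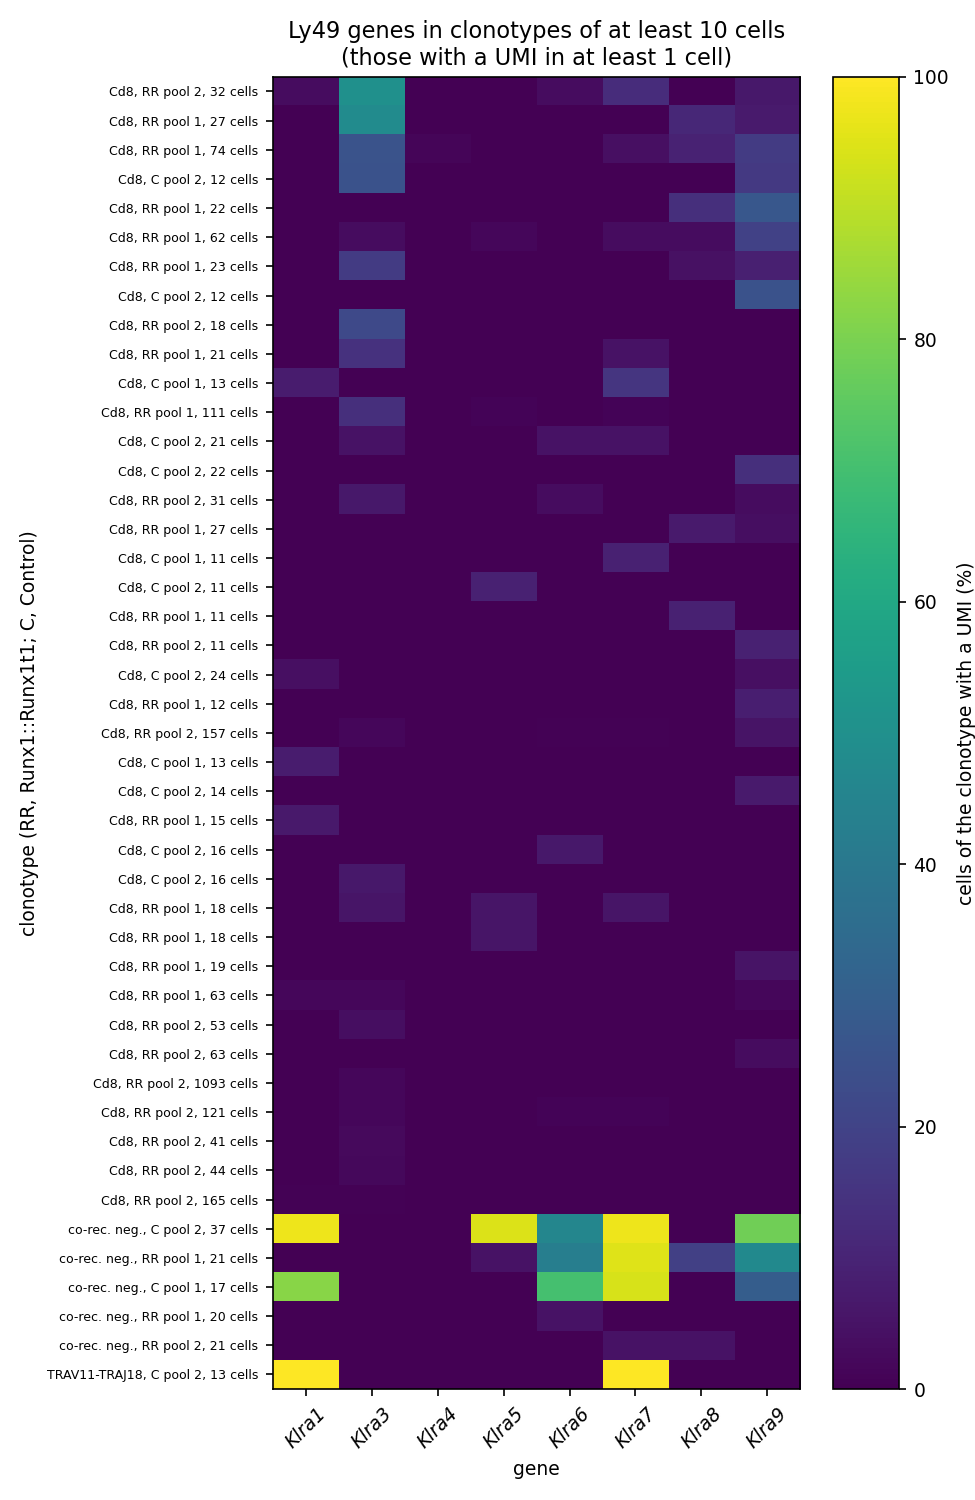
Percent of cells with a UMI (colour) of each member (columns) in clonotypes of at least 10 cells with at least 1 member UMI (rows, labelled by class, pool and number of cells). The 3 co-receptor-negative clonotypes of 37, 21 and 17 cells and the TRAV11-TRAJ18 clonotype of 13 cells stand out with at least 1 member in nearly all cells, and the Cd8 rows are mostly pale outside Klra3 and Klra9.

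Over all clonotypes of at least 2 cells, the mean share of the other cells positive given a positive cell was 89.1% in co-receptor-negative T cells (60 clonotypes with a positive cell, of 186) and 35.0% in Cd8 T cells (161 of 652). Each positive cell counts once in this mean, so large clonotypes weigh more. By pool it was 88.7%, 95.9%, 82.6% and 0% in co-receptor-negative and 46.8%, 43.0%, 35.8% and 20.8% in Cd8 T cells. The positive share itself, averaged over clonotypes, was 26.2% and 10.7% in these classes. Both cells of a pair were positive in 22.6% and 5.53% of pairs, averaged in the same way. These values are 3.30 and 4.83 times the square of the positive share. The ratio has a lower upper limit where the share is higher, so it does not rank the classes. For single members the mean share of other cells positive in co-receptor-negative T cells was 90% for Klra7 (43 clonotypes), 83.8% for Klra5 (9, among them that of 37 cells), 74.6% for Klra1 (28), 58.4% for Klra9 (13), 54.5% for Klra3 (8), 45.3% for Klra6 (26) and 7.5% for Klra8 (5). In Cd8 T cells it was 47.2% for Klra7 (60), 44.1% for Klra6 (40), 34.3% for Klra1 (27), 30.8% for Klra5 (9), 23% for Klra3 (42), 17.6% for Klra9 (73), 6.19% for Klra8 (23) and 0% for Klra4 (2). A UMI is missed in part of the cells that express a gene, so these shares are lower than the share of cells that express it.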

How the data were processed

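Per the labels and the study's methods, the authors made the 5′ expression and T cell receptor libraries with Cell Ranger 6.1.2 on GRCm38 and deposited raw UMI counts per gene and called barcode, with filtered receptor contigs. The annotation release is not given in the sources used here. The 4 expression libraries held 90958101 to 102883449 UMIs. Barcodes with under 200 genes or over 15% mitochondrial counts were dropped, as were doublets called by Scrublet in scanpy 1.11.5 (expected rate 0.05, and in 3 libraries, where the caller marked under 0.5%, the top 5% of scores instead). TRAV11-TRAJ18, Cd8, Cd4 and co-receptor-negative classes were set from contigs and from UMIs of Cd4, Cd8a and Cd8b1. A Cd8 or Cd4 T cell without a co-receptor UMI therefore falls in the co-receptor-negative class. Counts were summed per pool and class and tested with edgeR 4.0.16 (TMM, quasi-likelihood, filterByExpr) in R 4.3.3, with Benjamini-Hochberg adjustment over all genes tested and 0.05 as the limit. DESeq2 1.42.0 was an alternative. The scripts were tested on simulated data. Nothing in the labels says that pools were made on separate days. In the contrasts of the groups, p-values set the difference against the spread between the pools of a group. In fits with the pool as a block, they set it against the spread from pool to pool of the difference inside a pool.

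The members and gene lists were chosen with earlier results of these data known. All members are named, and of each list up to 4 genes a direction with the largest change among those that passed with the same direction in every pool, plus the 10 largest changes a direction between Cd8 T cells with and without a member. Named clonotypes were chosen after their values were seen. Counts of 5′ UMIs were not compared between genes as levels.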

Additional observations from a re-analysis of the deposited data

Results flagged for a closer look

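Klra9 had values of opposite sign in different classes. On the log2 scale Runx1::Runx1t1 against Control was -0.92 in co-receptor-negative T cells and 0.35 in TRAV11-TRAJ18 T cells (adjusted p = 0.383, edgeR, so not past the limit), with each Runx1::Runx1t1 pool on the same side of both Control pools within its class. The difference was tested as an interaction, at 1.26 (adjusted p = 9.21e-05, edgeR). The same test gave 0.86 for Klra1 and 1.43 for Klra5, with values of -1.24 and -0.40 for Klra1 and -0.69 and 0.78 for Klra5 in the co-receptor-negative and TRAV11-TRAJ18 classes. The test was added after these values were seen. In co-receptor-negative T cells with a Klrb1c UMI Klra9 gave 0.20, and the interaction was then 0.14 (adjusted p = 0.897, edgeR).

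Klra3 was at 0.47 in Cd8 T cells and at -0.0232 in TRAV11-TRAJ18 T cells, and neither passed (adjusted p = 0.312 and 0.988, edgeR). In CPM both Runx1::Runx1t1 pools were above both Control pools in the first class and below them in the second. The shares of cells overlapped between the groups in both classes, and the difference between the classes was not tested.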

How the results depend on the processing

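Over all alternatives 553 of 642 member values kept their direction and their side of the limit, 25 no longer passed, 44 newly passed and 20 changed sign. Of 1242 values of named list genes 1162 kept both, 78 no longer passed and 2 changed sign. The cause of a change was not tested unless stated. The contrast of Runx1::Runx1t1 with Control in Cd8 T cells, with 0 members called, gave 3 with DESeq2, 3 with no filter on low counts, 3 without clonotypes of at least 100 cells, 3 in single-cell clonotypes and 4 with the replicate block, in which Klra6 also passed (-0.86, adjusted p = 0.0463). In the same order, genes called higher and lower were 474 and 212 of 12951, 405 and 179 of 18950, 256 and 121 of 12752, 415 and 239 of 12524, and 381 and 197 of 12951. Co-receptor-negative T cells with a Klrb1c UMI gave 3 called in place of 5, where 107 of 10122 genes were higher and 41 lower. TRAV11-TRAJ18 T cells gave 2 with no filter and 2 with the replicate block (Klra5 0.90 and Klra7 -0.78). The pool labels name no shared day or litter, and same-numbered pools correlated at 0.32, 0.27 and 0.24 in the 3 classes, and with 2 pairs it could not be settled whether the numbers pair the pools. The contrast of co-receptor-negative with Cd8 T cells gave 3 called with no pool block. Its interaction gave 2 with no filter, 1 with at least 2 Cd8 UMIs and 1 with Klrb1c-bearing cells, and the interaction of TRAV11-TRAJ18 with co-receptor-negative T cells gave 1 with DESeq2, 1 with no pool block and 1 with Klrb1c-bearing cells. Genes called between Cd8 T cells with and without a member were 2734 without clonotypes of at least 100 cells and 534 with no pool block.

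Leaving out 1 pool at a time, the calls ranged from 0 to 6 in Cd8, 4 to 6 in co-receptor-negative and 0 to 2 in TRAV11-TRAJ18 T cells, 5 to 6 for co-receptor-negative against Cd8, 5 to 7 for TRAV11-TRAJ18 against Cd8, 4 to 5 for TRAV11-TRAJ18 against co-receptor-negative, 0 to 1 and 2 to 4 for the interactions, 2 to 4 for clone size and 722 to 2485 for genes in Cd8 T cells with a member. The difference in the share of cells with a member ranged from -13.0 to -5.07 percentage points in Cd8, -43.9 to -35.3 in co-receptor-negative and -1.73 to 0.773 in TRAV11-TRAJ18 T cells. In co-receptor-negative T cells it was -28.0 thinned, -28.9 with at least 2 UMIs and -10.4 with a Klrb1c UMI, and in TRAV11-TRAJ18 T cells it was 1.60 with each clonotype counted once.

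Signs changed in Klrb1c-bearing cells, when a pool was left out and in a few other settings. With Klrb1c-bearing cells the group difference in co-receptor-negative T cells was 0.91 for Klra3, 0.37 for Klra5, 0.20 for Klra9, -0.10 for Klrg1 and -0.0371 for Gzmk, the contrast of TRAV11-TRAJ18 T cells with them was -0.20 for Klra3 and -0.64 for Klra5, and the interactions were 0.39 for Klra3, 0.34 for Klra6 and -0.10 for Klra1. Without Runx1::Runx1t1 pool 2, Klra5 in Cd8 T cells was 0.18 (lowest without a pool -2.26), Klra3 in co-receptor-negative T cells 0.075 (lowest -0.49), and clone size gave 0.24 for Klra5 (lowest -2.88) and 0.13 for Klra8 (lowest -3.25). Without Runx1::Runx1t1 pool 1, Klra6 in TRAV11-TRAJ18 T cells was 0.43 (lowest -0.76) and clone size gave 0.009 for Klra5, which was 0.070 with no pool block. In TRAV11-TRAJ18 T cells Klra3 was 0.030 with no doublet removal and 0.0082 without Control pool 2 (lowest -0.050), and Klra6 was 0.17 with 1 TRB contig. Klra8 was -0.035 for co-receptor-negative against Cd8 with no pool block, and Klra1 was 0.017 for TRAV11-TRAJ18 against co-receptor-negative without Control pool 1 (lowest -0.46). Depth limits Klra4 and Klra8, which were read in few cells.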

Other observations

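Cells with no receptor contig of the alpha and beta chains and with a UMI of Trdc, the constant gene of the delta chain, also carried the family. At least 1 member was read in 26.7%, 23.9%, 20.4% and 13.2% of these cells in the order Control pool 1, Control pool 2, Runx1::Runx1t1 pool 1 and pool 2, and in 15.3%, 13.3%, 12.4% and 6.65% after thinning to 2000 UMIs. Klra7 was read in 15.4%, 12.7%, 8.63% and 5.09%, Klra1 in 10.1%, 8.66%, 7.52% and 5.69%, and Klra6 in 6.67%, 6.12%, 5.53% and 3.89%. Klra8 was again highest in Runx1::Runx1t1 pool 1, at 0.370%, 0.106%, 1.77% and 0.299%.

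Among TRAV11-TRAJ18 T cells the share with a member was not the same for each beta chain gene. It was 31.9% with TRBV13 (1142 cells), 41.8% with TRBV29 (328 cells) and 18.8% with TRBV1 (138 cells). By pool it was 42.0%, 50%, 41.7% and 29.6% with TRBV29 against 31.4%, 31.0%, 31.0% and 38.0% with TRBV13, so the order did not hold in Runx1::Runx1t1 pool 2, and no test was run. Cells with no co-receptor UMI held a member in 33.0% (1200 cells) and those with Cd4 in 28.5% (397 cells). The most frequent alpha chain joining region, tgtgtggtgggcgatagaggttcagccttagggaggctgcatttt, was found in 599 cells, or 36.0% of the TRAV11-TRAJ18 T cells counted by this chain.

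The 3 Klra rows that are no members were rare. Klra10 was found in 58 Cd8 T cells, and it was higher in Cd8 T cells with a member UMI by 2.34 on the log2 scale (edgeR, adjusted p = 0.0121). Klra2 was found in 14 and Klra17 in 2 Cd8 T cells.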
